A study of Tribolium castaneum with 6 samples.

Results

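The red flour beetle *Tribolium castaneum* transcriptome held 775 assembled loci that carried no gene name, and 154 of them had at least 1 transcript of 2 or more exons. These 154 unannotated spliced loci are described here, among 15099 genes and loci in all (14316 annotated genes, 621 unannotated loci of a single exon, and 8 sets of unnamed transcripts at loci that also hold named ones). They were taken by identifier and exon number: every transcript of the locus lacked a gene name and at least 1 was spliced. Neither the level nor the response to knockdown was a criterion. The loci and their exons were, however, assembled from reads of these same libraries, so a locus could enter through the group where it was high. The level is given in FPKM (fragments per kilobase of transcript, scaled to the number of fragments in the library). The FPKM of a locus is the sum over its transcripts, and the 154 loci held 219 transcripts, of which 13 were single-exon.

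A transcript assembler such as StringTie joins overlapping aligned reads into transcript models, and a read that spans a junction places an intron in the model. A locus outside the annotation can be an unannotated protein-coding gene, a long noncoding RNA, a transcribed mobile element or a detached end of a neighbouring gene, and a read count by itself does not tell these apart. Transposons and retrotransposons, which move by a DNA or an RNA intermediate, are often poorly placed in genome assemblies and are common on short unplaced scaffolds. AMP-activated protein kinase (AMPK), the enzyme targeted in the study, is a sensor of cellular energy whose catalytic α subunit (TcAMPKα) is encoded by Snf1a in the beetle.

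The libraries compared larvae of the Georgia-1 strain injected at 20 days of age with about 200 ng of double-stranded RNA against TcAMPKα (dsTcAMPKα) or against EGFP, a jellyfish protein gene the beetle lacks (dsEGFP, the control). Each group had 3 libraries, each from the total RNA of 10 whole, unsexed larvae pooled 6 days after injection, so the 2 groups shared the strain, the age, the injection and the collection time and differed in the target of the dsRNA. In whole-larva pools, fewer cells of a type and less RNA per cell cannot be told apart. The target fell in every knockdown library: Snf1a was at 77.3, 74.9 and 56.9 FPKM in the dsEGFP libraries and at 10.7, 7.32 and 16.3 in the dsTcAMPKα libraries (log2 fold change -2.56, SE 0.29, limma adjusted p = 0.0164).

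An estimated 33518139 to 37584930 reads per library were assigned to transcripts. The spliced loci took 0.189 to 0.260% of them in the dsEGFP libraries and 0.271 to 0.322% in the dsTcAMPKα libraries, ranges that did not overlap. MSTRG.7605 alone held 30.7% of the reads of the 154 loci, and without it the shares overlapped, at 0.159 to 0.188% and 0.167 to 0.194%. Measured as summed FPKM, which counts a short transcript as much as a long one, the order was the reverse: 2441, 2677 and 1897 in the dsEGFP libraries against 1804, 1670 and 1741 in the dsTcAMPKα libraries. The total FPKM of all features was also higher in dsEGFP, and as a share of it the loci overlapped between groups, at 0.311, 0.321 and 0.240% against 0.266, 0.252 and 0.261%. Between 148 and 153 of the loci were above 0 in a library, and 138 were above 0 in all 6 libraries. Of the markers looked up by symbol to check the whole-larva label, those of gut (among them Chs2, a gut chitin synthase), of cuticle other than Knk (among them Lac2, the laccase that tans cuticle) and the neural genes Syt1 and para were detected in all libraries. The muscle, germ-line and yolk markers, Knk, elav and nSyb were not listed under the symbols sought. The dsEGFP replicate 3 library was the lowest control for 66 of 124 tested loci (53.2%, against 37.6% of all tested features), and stood near the knockdown libraries for several abundant loci, given with their values.

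Most of the loci were small and simply built. In 124 of the 154 the longest exon chain was 2 exons, in 19 it was 3, and only 11 loci had 4 or more (3 with 4, 4 with 5, 2 with 6 and 2 with 7). Likewise 124 loci had 1 transcript, 20 had 2 and 6 had 3. The most abundant transcript of a locus had a median length of 728 nt, with a range from 204 to 14269 nt, against a median of 1464 nt for annotated genes and 642 nt for the unannotated single-exon loci. In the 105 loci with 1 transcript of 2 exons, the span minus the transcript length gives the intron: its median was 66 bp with quartiles at 52 and 1786 bp, and 57 of the 105 introns were under 100 bp. Annotated transcripts of 2 exons, 3441 in number, had a median intron of 56 bp with quartiles at 49 and 266 bp. The shorter introns of the loci thus fell in the size range of annotated ones, while the upper quartile was longer.

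The locus with the most transcripts was MSTRG.7811 (NC_007422.5:2842582-2844807 of the Tcas5.2 assembly, minus strand), with 21 models of up to 4 exons in a span of 2226 bp. MSTRG.5353 had 7 transcripts and MSTRG.4764 had 5. The most exons in a single transcript, 7, were in MSTRG.10983 and in MSTRG.3669, and MSTRG.12654 followed with 6. In MSTRG.10983 (NC_007424.3:5850753-5855747, plus strand) the 2 transcripts were of similar length, 2373 and 2304 nt, and the estimate moved between them from library to library. The model of 6 exons was at 84.6, 77.8 and 44.4 FPKM in dsEGFP and at 15.3, 4.35 and 58.6 in dsTcAMPKα, and the model of 7 exons was at 52.9 and 54.4 FPKM in dsTcAMPKα replicates 1 and 2 and at or below 0.00592 in the other 4 libraries. Summed over both models the groups overlapped, at 44.4 to 84.6 FPKM in dsEGFP and 58.6 to 68.2 in dsTcAMPKα (log2 fold change -0.11, SE 0.26, limma adjusted p = 0.798).

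The loci were spread unevenly over the genome. On the 10 assembled chromosomes there were 97, from 1 locus on NC_007421.3 to 24 on NC_007418.3, or 1.13 to 12.7 loci per 1000 annotated genes. The other 57 lay on 51 unplaced scaffolds, 48.8 loci per 1000 annotated genes there, and 19 of these 57 began within the first 100 bases of their scaffold. Strand was nearly balanced, with 71 loci on the plus and 83 on the minus strand. None of the 154 overlapped the span of an annotated transcript on either strand: 123 lay between annotated genes and 31 lay on scaffolds without an annotated gene. The authors' filter for new loci is not stated, and loci inside or opposite a gene may have been removed before deposit. The absence of overlaps therefore cannot be read as a property of transcription outside the annotation.

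Many of the 123 intergenic loci sat close to a gene. The median distance to the nearest annotated gene was 992 bp, 62 loci were within 1000 bp, 22 within 100 bp and 15 beyond 10000 bp. In all, 34 loci were head to head with the nearest gene (starts facing each other on opposite strands), 29 tail to tail (ends facing), 33 downstream of it on the same strand and 27 upstream on the same strand. Of the 22 loci within 100 bp, 12 were tail to tail, 6 head to head, 2 downstream and 2 upstream. The library preparation described for these samples does not mark strand, so reads at a boundary between neighbouring transcripts of opposite strand could have been given to either. The loci within 1000 bp of a gene had a median level of 4.28 FPKM and those farther away 1.54 FPKM.

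**Figure D1:**
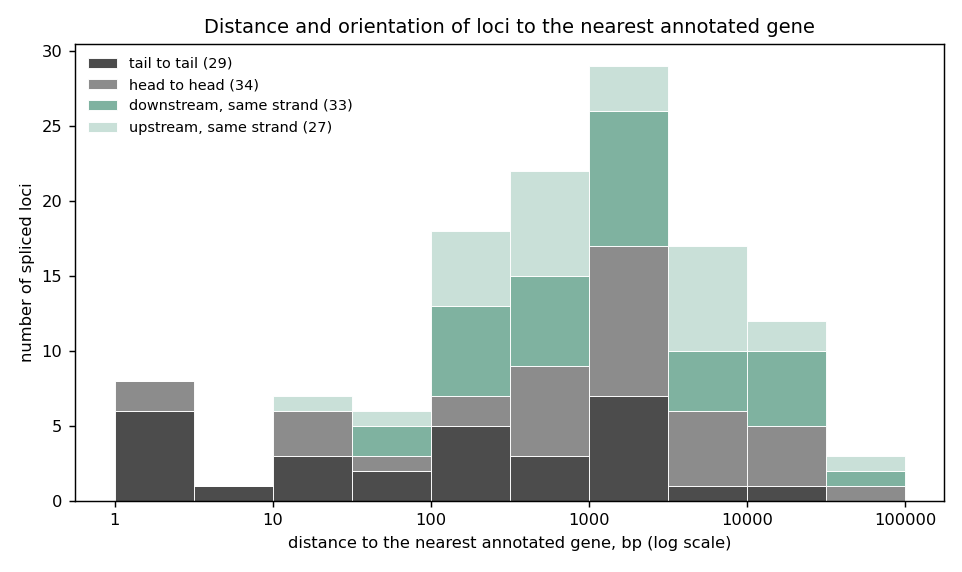
Number of unannotated spliced loci (y axis) by distance in bp to the nearest annotated gene (x axis, log scale), for the 123 loci on a sequence with an annotated gene, with bars stacked by orientation. The tallest bar lies just above 1000 bp, and the bars at the shortest distances are mostly tail-to-tail loci.

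The level of the loci was low, with a median of 2.93 FPKM (mean over the 6 libraries, range 0.286 to 199), below the 9.05 FPKM of annotated genes and above the 0.927 FPKM of unannotated single-exon loci. A few loci carried much of the signal: the 3 highest held 22.6% of the summed level and the 10 highest 48.8%. The highest was MSTRG.2957 (NC_007418.3:11355923-11356945, plus strand, 3 exons, 732 nt), 32 bp from LOC103314681 in tail-to-tail orientation. Its level was 219, 205 and 229 FPKM in dsEGFP and 211, 165 and 165 in dsTcAMPKα, groups that overlapped (log2 fold change -0.28, SE 0.16, limma adjusted p = 0.244).

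MSTRG.4764, second in level, lay 101 bp downstream of LOC103312805 and was at 250, 263 and 124 FPKM in dsEGFP and 135, 133 and 88.1 in dsTcAMPKα. Here dsEGFP replicate 3 was inside the range of the knockdown libraries, and the difference did not pass the test (log2 fold change -0.78, SE 0.34, limma adjusted p = 0.144). MSTRG.1627 was at 115, 146 and 95.1 FPKM in dsEGFP and 104, 53.2 and 68.7 in dsTcAMPKα. MSTRG.10987, a chain of 5 exons and 1687 nt, was the steadiest of the abundant loci, at 97.2, 86.6 and 74.3 FPKM against 102, 105 and 104. Its groups did not overlap, but the difference was small and did not pass the test (log2 fold change 0.27, SE 0.15, limma adjusted p = 0.226).

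MSTRG.4956 (NC_007419.2:9894729-9895175, minus strand, 390 nt) was at 165, 239 and 39.6 FPKM in dsEGFP and 21.9, 36.6 and 23.3 in dsTcAMPKα. All knockdown libraries were below all controls, dsEGFP replicate 3 only just, and the difference missed the threshold (log2 fold change -2.09, SE 0.64, limma adjusted p = 0.0694). MSTRG.3771 (NC_007418.3:29278611-29279186, plus strand, 464 nt) was at 204, 218 and 18.6 FPKM in dsEGFP and 11.9, 34.8 and 23.1 in dsTcAMPKα. MSTRG.3772, 1345 bp farther along the same strand and chosen after its values were seen, was at 46.0, 107 and 7.34 FPKM against 4.56, 11.1 and 5.62. In both loci dsEGFP replicate 3 fell within the knockdown range while the other control libraries were several times higher, and the limma adjusted p was 0.164 for MSTRG.3771 and 0.132 for MSTRG.3772. Without dsEGFP replicate 3 the log2 fold change of MSTRG.3771 was -3.25 (limma adjusted p = 0.00978) and that of MSTRG.4956 was -2.86 (adjusted p = 0.00673). With any other 1 library left out, the limma adjusted p was 0.224 to 0.378 for MSTRG.3771 and 0.135 to 0.183 for MSTRG.4956. Cht8, a chitinase gene of the gut marker list, was likewise at 475 and 645 FPKM in dsEGFP replicates 1 and 2, at 75.8 in replicate 3 and at 109 to 295 in dsTcAMPKα; its part in the levels of these loci was not tested.

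The comparison of dsTcAMPKα with dsEGFP asks which loci responded to the knockdown. Features with a mean of at least 1 FPKM over the 6 libraries were tested with limma on log2(FPKM + 1), 10981 in all, and 124 of the 154 spliced loci passed this filter. A locus could pass it through the group where it was high. Of the loci called below, MSTRG.5080, MSTRG.3515, MSTRG.10699 and MSTRG.10700 were under 1 FPKM in every dsEGFP library. MSTRG.4452 was under 1 FPKM in every dsTcAMPKα library. Calls needed a p under 0.05 after Benjamini-Hochberg adjustment, and a log2 fold change past 1 in either direction. Of the 124 loci, 11 were called higher after the knockdown and 9 lower. Over all tested features 4.09% were called higher and 2.71% lower, and among the loci it was 8.87% and 7.26%. A further 2 loci had an adjusted p under 0.05 with a smaller fold change, and 45 had an unadjusted p under 0.05. Counted by separation of the groups alone, 28 of the 124 loci had all dsTcAMPKα libraries above all dsEGFP libraries, 22.6% against 31.2% of all tested features, and 20 had them all below, 16.1% against 13.6%. The median log2 fold change of the loci was -0.01, and that of all tested features was 0.20.

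The spread between replicates was wider for the loci than for genes in general. The median SD of log2(FPKM + 1) among the dsEGFP libraries was 0.477 for the loci and 0.310 for annotated genes. Among the dsTcAMPKα libraries it was 0.279 and 0.156. The wide spread was not particular to the spliced loci. In dsEGFP and dsTcAMPKα it was 0.515 and 0.300 for unannotated single-exon loci, and 0.451 and 0.254 for annotated genes under 500 nt. The calls depended on which libraries were used. With any 1 of the dsTcAMPKα libraries left out, none of the loci was called by limma in either direction, with 35 to 40 of the 124 at an unadjusted p under 0.05. Nearly nothing else was called then either: over all 10981 features there were no calls without replicate 1 or 2 and 4 higher and 30 lower without replicate 3. Without dsEGFP replicate 2 there was 1 locus higher and none lower, with 40 at an unadjusted p under 0.05 and 29 higher and 48 lower over all features. Without dsEGFP replicate 1 there were 10 loci higher and 3 lower, and without dsEGFP replicate 3 there were 11 and 20. Of the 20 main calls, 10 and 16 were kept. Over all features there were 533 higher and 170 lower without dsEGFP replicate 1, and 685 and 513 without dsEGFP replicate 3. Median-ratio scaling of the libraries moved the median log2 fold change of all features from 0.20 to -0.01. It gave 5 loci higher and 10 lower, TPM gave 22 and 4, and limma-voom on estimated reads 3 and 4. Over all features median-ratio scaling gave 164 higher and 449 lower, TPM 1400 and 219, and limma-voom 167 and 455.

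**Figure D2:**
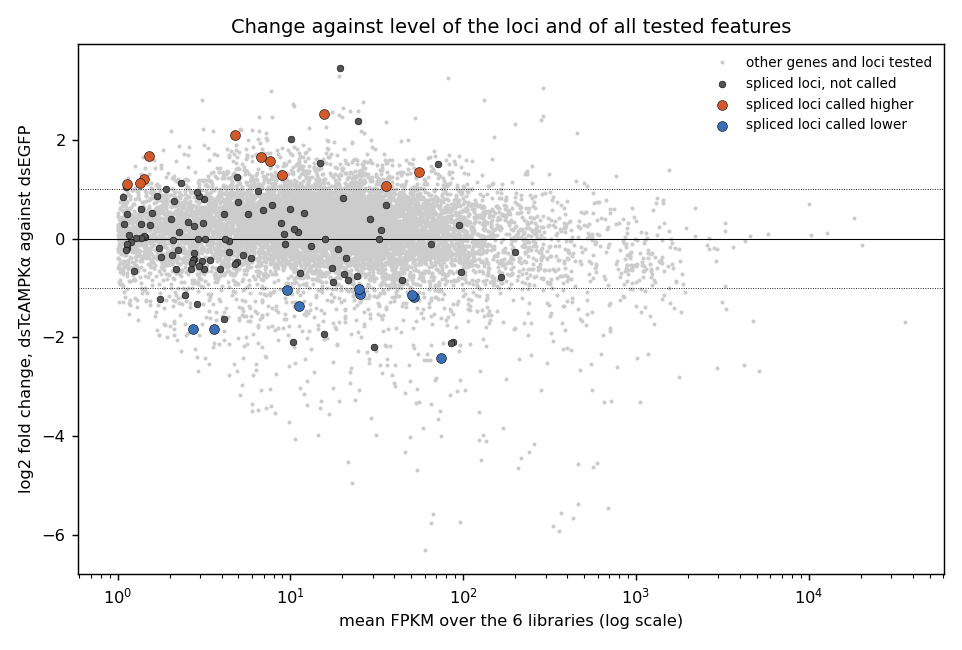
Log2 fold change of dsTcAMPKα against dsEGFP (y axis, from log2(FPKM + 1)) by mean FPKM over the 6 libraries (x axis, log scale); grey dots are all other tested genes and loci, larger dots the 124 tested spliced loci, with the 11 called higher in orange and the 9 called lower in blue, and dotted lines at a change of 1 and -1. Uncalled loci lie beyond the dotted lines on both sides, up to a log2 fold change of 3.45.

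The 11 loci called higher had log2 fold changes of 1.06 to 2.52 and adjusted p-values (limma) of 0.0164 to 0.0463. In each of the 11, every dsTcAMPKα library was above every dsEGFP library. The call thresholds favour such separation, so it is not support of its own. They spanned mean levels of 1.13 to 55.2 FPKM and lengths of 319 to 14269 nt with a median of 1511 nt. Only 2 of the 11 were within 1000 bp of an annotated gene, and 4 were on scaffolds. The largest change was in MSTRG.12676 (NW_015450628.1:1939-9473, minus strand, 3 transcripts, 4939 nt), on a scaffold without an annotated gene. It was at 7.17, 3.82 and 1.75 FPKM in dsEGFP and at 38.2, 21.2 and 22.4 in dsTcAMPKα (log2 fold change 2.52, SE 0.43, adjusted p = 0.0240). The lowest knockdown library was well above the highest control.

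MSTRG.12878 (NW_015451025.1:123-8186, minus strand, 3764 nt) was at 1.85, 1.20 and 0.473 FPKM in dsEGFP and 10.8, 4.95 and 9.50 in dsTcAMPKα (log2 fold change 2.11, SE 0.36, limma adjusted p = 0.0240). Both of its transcripts, one of 5207 nt and one of 3764 nt, were higher in every knockdown library than in any control. The nearest annotated gene, LOC100142017, ended 19955 bp away and had a log2 fold change of 1.15 that did not pass (limma adjusted p = 0.0615). MSTRG.12510 (NW_015450261.1:1-2059, minus strand, 1818 nt), at the very end of a scaffold without annotated genes, was at 5.75, 3.40 and 1.66 FPKM in dsEGFP and 11.2, 12.8 and 11.1 in dsTcAMPKα (log2 fold change 1.56, SE 0.34, limma adjusted p = 0.0325). MSTRG.12661 (NW_015450599.1:381-1042, minus strand, 600 nt) was at 26.2, 24.1 and 18.4 FPKM against 46.6, 58.9 and 41.3 (log2 fold change 1.06, SE 0.20, limma adjusted p = 0.0275). In these 4 scaffold loci dsEGFP replicate 3 was the lowest of the 6 libraries. That was not particular to scaffolds, since it was the lowest control in 10 of the 11 loci called higher.

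MSTRG.8012 (NC_007422.5:3922047-3922452, minus strand, 319 nt with an intron of 87 bp) had the smallest adjusted p of all the loci. It was at 2.83, 2.39 and 3.03 FPKM in dsEGFP and 11.2, 9.62 and 11.7 in dsTcAMPKα (log2 fold change 1.66, SE 0.17, limma adjusted p = 0.0164). The replicates of each group lay close together and the groups stood well apart. It faced LOC107398205 head to head at 529 bp, a gene under 0.5 FPKM in every library.

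MSTRG.7605 (NC_007422.5:962305-977282, plus strand) was the longest of the loci and held the most estimated reads, 171954 in all. It had 2 transcripts of 14269 and 14134 nt, each of 2 exons. It was at 49.7, 26.3 and 20.6 FPKM in dsEGFP and 75.8, 71.5 and 87.6 in dsTcAMPKα (log2 fold change 1.35, SE 0.32, limma adjusted p = 0.0380). Of its 2 transcripts, the longer was at 20.2 to 27.8 FPKM in dsEGFP and 32.0 to 44.4 in dsTcAMPKα. The other was at 21.9, 6.13 and 0.00370 FPKM in dsEGFP and 32.5 to 43.2 in dsTcAMPKα. An unannotated single-exon locus on the other strand, MSTRG.7607 (chosen after its values were seen), overlapped the last 873 bp of MSTRG.7605 and was at 214, 266 and 1210 FPKM in dsEGFP and 75.1, 86.4 and 137 in dsTcAMPKα, an order opposite to that of MSTRG.7605. How far reads were shared between them was not tested.

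MSTRG.8083 (NC_007422.5:4265914-4266648, plus strand, 3 exons, 635 nt), 332 bp downstream of LOC655020 on the same strand, was the only called locus with a protein description in the study's annotated list, that of a Beclin 1-associated autophagy-related key regulator-like protein. In mammals the protein of this name belongs to the lipid kinase complex that starts autophagosome formation. The locus was at 5.48, 6.50 and 2.63 FPKM in dsEGFP and 14.8, 15.3 and 9.02 in dsTcAMPKα (log2 fold change 1.29, SE 0.34, limma adjusted p = 0.0463), the weakest of the 11 calls by adjusted p. LOC655020 itself was at 68.5 to 93.2 FPKM in dsEGFP and 93.2 to 114 in dsTcAMPKα (log2 fold change 0.28, adjusted p = 0.294). The annotated list was drawn up by the study on these same libraries, so the description comes only for genes that stood out in them.

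The remaining higher calls were thinly covered. MSTRG.5080 (NC_007419.2:11533729-11535813, minus strand) was at 0.349, 0.109 and 0 FPKM in dsEGFP and at 4.53, 1.20 and 2.98 in dsTcAMPKα (log2 fold change 1.67, SE 0.37, limma adjusted p = 0.0329). Most of this level came from a single-exon model of 2085 nt, and the spliced model of 290 nt was listed at 0 in all dsEGFP libraries and at 1.20, 0.161 and 0.267 FPKM in dsTcAMPKα. The locus thus counted as spliced only through the dsTcAMPKα libraries. MSTRG.3515 (332 nt, an intron of 1573 bp) rested on 104 estimated reads in all 6 libraries and was at 0.882, 0.257 and 0.236 FPKM against 2.42, 3.33 and 1.39. MSTRG.10699 and MSTRG.10700, chains of 4 and 5 exons on the same strand of NC_007424.3 and 8452 bp apart, moved alike. MSTRG.10699 was at 0.826, 0.711 and 0 FPKM in dsEGFP and 2.27, 2.07 and 2.22 in dsTcAMPKα, and MSTRG.10700 at 0.694, 0.349 and 0.0460 against 1.62, 2.11 and 1.96. Their log2 fold changes were 1.12 (SE 0.28) and 1.11 (SE 0.24), on a scale with 1 FPKM added that makes fold changes at such levels smaller. With 0.1 FPKM added they were 2.44 and 2.41, and neither call held (limma adjusted p = 0.107 and 0.0617). The call of MSTRG.3515 was also lost then (limma adjusted p = 0.0504), and that of MSTRG.5080 held (0.0335). The annotated gene nearest MSTRG.10700, LOC655635, had a log2 fold change of the other sign, -0.65 (limma adjusted p = 0.0371).

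**Figure D3:**
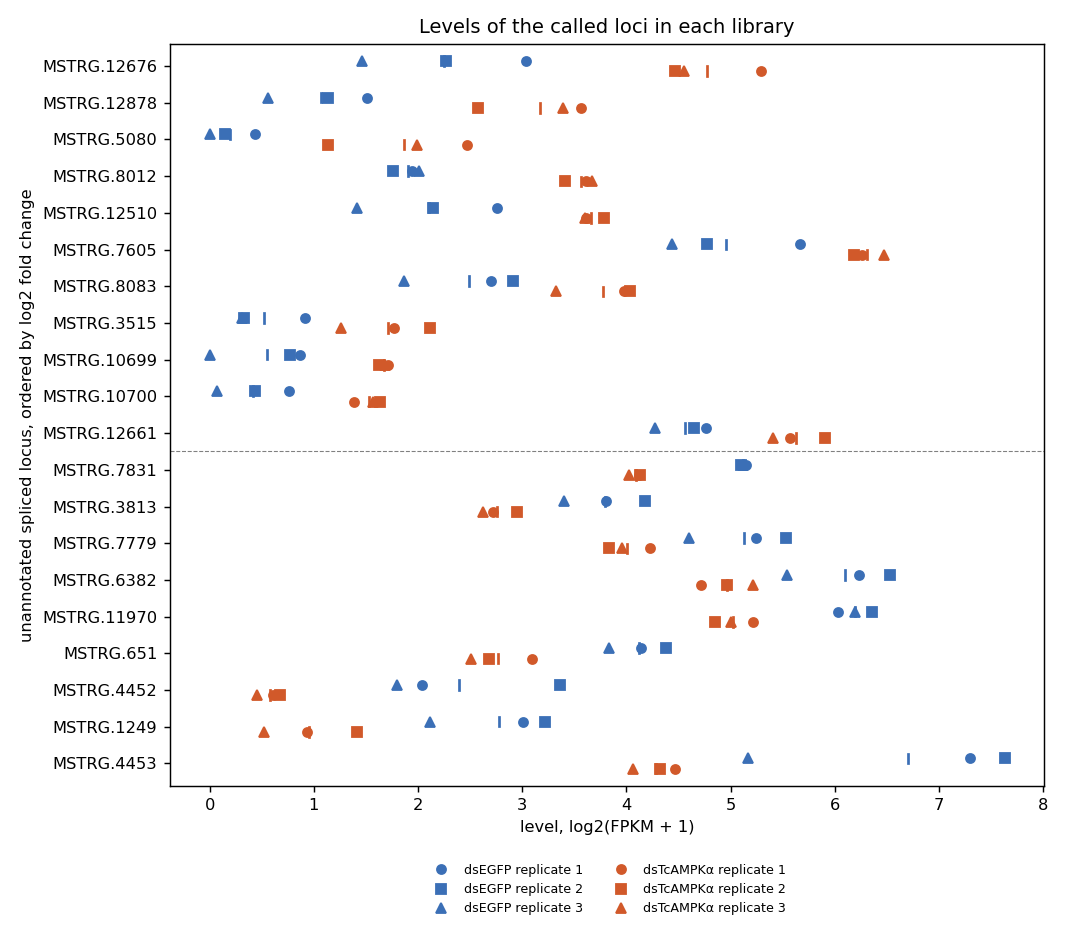
Level of each of the 20 called loci as log2(FPKM + 1) (x axis) in the 3 dsEGFP libraries (blue) and the 3 dsTcAMPKα libraries (orange), with loci ordered by log2 fold change (y axis), vertical ticks at the group means and a dashed line between the 11 loci called higher and the 9 called lower. No locus has overlapping groups, a separation that the call thresholds favour. The dsEGFP replicate 3 library (blue triangle) is the lowest control in 10 of the 11 higher and 7 of the 9 lower loci.

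The 9 loci called lower were all short, at 332 to 556 nt with a median of 413 nt, all on chromosomes and all within 1000 bp of an annotated gene. Their log2 fold changes ran from -2.42 to -1.03 with limma adjusted p-values of 0.0176 to 0.0450. In each of the 9 every dsTcAMPKα library was below every dsEGFP library, a separation that the call thresholds favour here too. Of the 9 loci, 7 were single transcripts with 1 intron of 47 to 51 bp. The most abundant was MSTRG.4453 (NC_007419.2:5037773-5038186, plus strand, 363 nt), at 156, 197 and 35.0 FPKM in dsEGFP and 21.1, 18.9 and 15.8 in dsTcAMPKα (log2 fold change -2.42, SE 0.62, adjusted p = 0.0450). MSTRG.4452, 110 bp before it on the same strand, was at 3.09, 9.26 and 2.47 FPKM in dsEGFP and 0.524, 0.593 and 0.365 in dsTcAMPKα (log2 fold change -1.82, SE 0.42, adjusted p = 0.0360). The pair fell together although their levels differed many times over, and in both dsEGFP replicate 3 was the lowest control. LOC103312669, which MSTRG.4452 faced head to head at 25 bp, was at or below 0.408 FPKM in all libraries.

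MSTRG.1249 (NC_007417.3:8415900-8419527, plus strand) lay 154 bp from Ftz on the same strand, on its downstream side. Ftz, fushi tarazu, is a homeobox gene of the Hox cluster that acts in the early segmentation of the Drosophila embryo. The locus was at 7.05, 8.31 and 3.31 FPKM in dsEGFP and 0.909, 1.67 and 0.436 in dsTcAMPKα (log2 fold change -1.82, SE 0.37, limma adjusted p = 0.0293). Ftz itself was listed at 0 in 5 libraries and at 0.0536 FPKM in dsTcAMPKα replicate 2. Of the 3 transcripts, the model of 3 exons was at 3.48, 1.78 and 0.557 FPKM in dsEGFP and listed at 0 in all dsTcAMPKα libraries, and the model spanning 3628 bp was at 1.94 to 4.24 FPKM against 0.383 to 1.60.

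The smallest adjusted p-values among the falls belonged to 2 loci that touched or nearly touched a gene, and neither passed the fold threshold under TPM (-0.79 for MSTRG.7831 and -0.92 for MSTRG.11970). MSTRG.7831 (NC_007422.5:2956388-2956787, plus strand, 353 nt) began at the base next to LOC103313887, head to head, and was at 34.4, 33.2 and 33.8 FPKM in dsEGFP and 16.4, 16.5 and 15.3 in dsTcAMPKα (log2 fold change -1.03, SE 0.12, limma adjusted p = 0.0176). LOC103313887 was at 11.8 to 18.8 FPKM against 12.1 to 13.8 (log2 fold change -0.15, adjusted p = 0.633). MSTRG.11970 (NC_007425.3:3148125-3148618, minus strand, 445 nt), 66 bp downstream of LOC655581 on the same strand, was at 64.4, 81.0 and 72.4 FPKM in dsEGFP and 36.1, 27.9 and 31.0 in dsTcAMPKα (log2 fold change -1.17, SE 0.16, limma adjusted p = 0.0211). LOC655581, an abundant gene, was at 1069 to 1759 FPKM in dsEGFP and 1002 to 1086 in dsTcAMPKα (log2 fold change -0.30, adjusted p = 0.409).

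MSTRG.651 (NC_007416.3:7935733-7936112, plus strand, 332 nt) abutted LOC658231 tail to tail and was at 16.6, 19.8 and 13.3 FPKM in dsEGFP and 7.53, 5.43 and 4.70 in dsTcAMPKα (log2 fold change -1.35, SE 0.23, limma adjusted p = 0.0240). LOC658231 was at 34.5 to 42.2 FPKM against 38.1 to 46.5 (log2 fold change 0.17, adjusted p = 0.444). MSTRG.6382, 4 bp from LOC103313262 tail to tail, was at 74.1, 91.5 and 45.5 FPKM in dsEGFP and 25.3, 30.3 and 36.1 in dsTcAMPKα. MSTRG.7779, 202 bp downstream of LOC661732, was at 37.0, 45.3 and 23.3 FPKM against 17.7, 13.3 and 14.6. LOC661732 had a log2 fold change of -0.78 (limma adjusted p = 0.0285), in the same direction and under the fold threshold. MSTRG.3813 was at 12.9, 17.1 and 9.56 FPKM against 5.57, 6.72 and 5.15.

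Of the 20 called loci 18 had an annotated gene on their sequence, 17 distinct genes, and 13 of these were tested. None of the 13 was called by limma, where 6.80% of all tested features were, so the count says little about neighbours. LOC661732 and LOC655635 had an adjusted p under 0.05, and the log2 fold changes of the 13 ran from -2.35 to 1.15. Distance went with the direction of the calls, in splits chosen after the values were seen and not tested. Of 53 tested loci within 1000 bp of a gene, 2 were called higher and 9 lower, and of 44 tested loci beyond 1000 bp, 7 were called higher and none lower. The median transcript length was 635 nt in the first set and 815 nt in the second. Likewise, of 44 tested loci with 1 transcript and an intron under 100 bp, 2 were called higher and 7 lower, and of 34 with a longer intron 2 were higher and none lower, with median transcript lengths of 596 and 821 nt.

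Transcript length moved with the change both in the spliced loci and in annotated genes. Among the loci under 500 nt, 2 of 34 tested were called higher and 8 lower (5.88 and 23.5%). Annotated genes of that length gave 9 higher and 104 lower of 499 (1.80 and 20.8%). Among the loci of 1000 nt or more, 7 of 50 were called higher and none lower (14 and 0%). Annotated genes of that length gave 388 higher and 77 lower of 7884 (4.92 and 0.977%), a smaller share higher than among the loci. Length and log2 fold change had a Spearman's rho of 0.456 over the 124 loci and of 0.636 over all 10981 tested features, given as a description since the features share the same 6 libraries. When the trend with length was removed over all features, rho was 0.069 over the loci. Then 4 loci were called higher and none lower, with 39 at an unadjusted p under 0.05. Over all 10981 features 46 were then called higher and 75 lower, against 449 and 298 before, so calls were lost across the series. Of the 20 calls, 2 were kept, MSTRG.8012 (log2 fold change 2.30, limma adjusted p = 0.00963) and MSTRG.12661 (1.503, adjusted p = 0.0421). Sizes moved unevenly: the 11 higher loci had log2 fold changes of 0.19 to 2.30 after the correction, 9 of them still past 1, and the 9 lower loci -1.80 to -0.41, with 3 still past -1. MSTRG.7605 went from 1.35 to 0.19 and MSTRG.7831 from -1.03 to -0.41, while MSTRG.3515 went from 1.20 to 1.83 and MSTRG.8083 from 1.29 to 1.70. Knockdown and whatever gave the trend with length cannot be told apart in this design, since the trend is measured between the same groups.

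**Figure D4:**
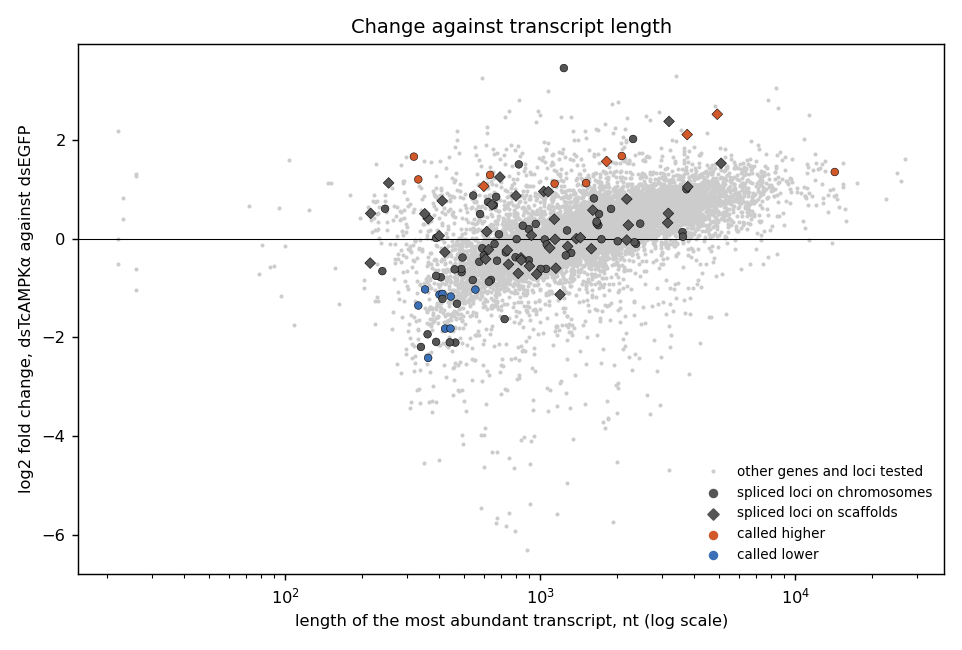
Log2 fold change of dsTcAMPKα against dsEGFP (y axis) by length in nt of the most abundant transcript (x axis, log scale), for all tested features (grey) and for the tested spliced loci on chromosomes (circles) and scaffolds (diamonds), with calls in orange (higher) and blue (lower). The 9 lower calls sit at 332 to 556 nt, and both the grey features and the spliced loci rise from left to right.

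On scaffolds 4 of 46 tested loci were called higher and none lower, and on chromosomes 7 of 78 were called higher and 9 lower. The median log2 fold change was 0.21 on scaffolds and -0.11 on chromosomes. Of annotated genes 6.04% were called higher and 2.38% lower on scaffolds, and 3.77 and 2.69% on chromosomes, so a count of 0 lower among 46 loci is near that share. Annotated genes had medians of 0.31 on scaffolds and 0.19 on chromosomes. The median length of the most abundant transcript was 841 nt for the loci on scaffolds and 640 nt on chromosomes, and the difference between the sequence types was not tested.

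In 7 cases, 2 spliced loci were assembled over each other on opposite strands, and 24 of the 154 loci overlapped some other unannotated locus, 23 of them on the other strand and MSTRG.12585 a locus listed with no strand. The clearest case was the scaffold NW_015450628.1, where MSTRG.12675 (plus strand, bases 1788 to 9473) and MSTRG.12676 (minus strand, 1939 to 9473) shared 7535 bp. The pair held 2 mirror-image pairs of transcripts, with the same start, end, exon number and length (1594 nt in one pair and 1588 nt in the other) on both strands. MSTRG.12675 was at 8.32, 3.01 and 12.0 FPKM in dsEGFP and 25.7, 17.9 and 22.0 in dsTcAMPKα, with all knockdown libraries above all controls (log2 fold change 1.53, SE 0.43, limma adjusted p = 0.0569). It was described in the study's annotated list as a retrovirus-related Pol polyprotein from transposon 297-like protein, the polyprotein that carries the reverse transcriptase of an LTR retrotransposon. In dsEGFP replicate 3, MSTRG.12675 was at 12.0 FPKM and MSTRG.12676 at 1.75 FPKM, whereas in the other 5 libraries the levels of the 2 strands differed by 1.02 to 1.49-fold. The library preparation described for these samples does not mark strand, though single-exon loci such as MSTRG.8440 were listed with a strand. How strand was assigned was not tested. The split between the strands, and with it the call of one and not the other, is uncertain.

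**Figure D5:**
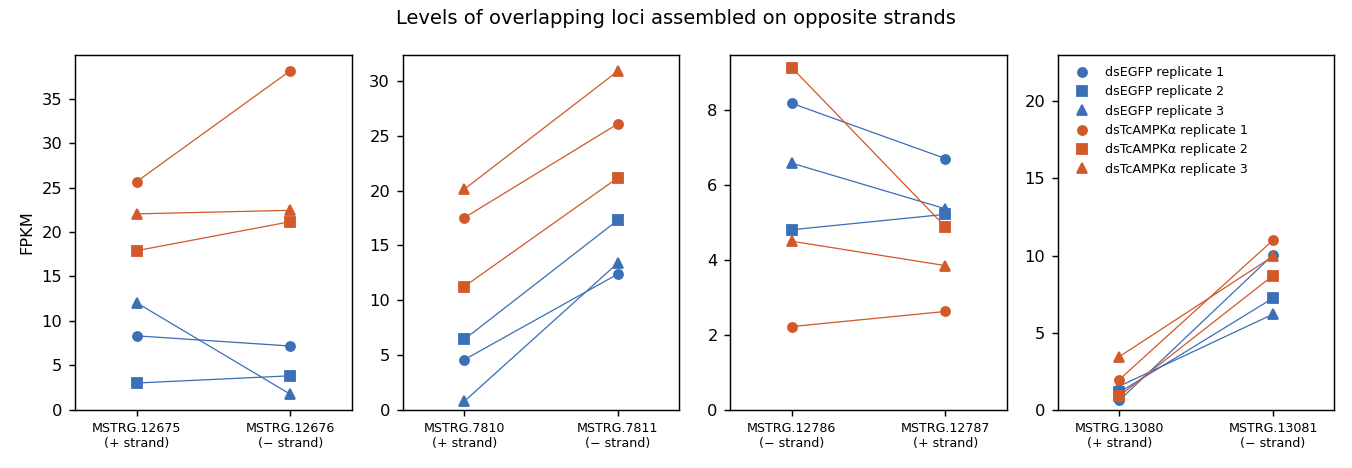
FPKM (y axis, linear from 0) of 4 pairs of spliced loci that overlap on opposite strands, with a line joining the 2 loci of a pair in each dsEGFP (blue) and dsTcAMPKα (orange) library. In the first pair the knockdown libraries lie above the controls on both strands, and in the last pair the plus-strand locus is the lower one in all 6 libraries.

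MSTRG.7811 and its partner MSTRG.7810 on the other strand overlapped by 2225 bp. MSTRG.7811 was at 12.4, 17.3 and 13.4 FPKM in dsEGFP and 26.1, 21.2 and 30.9 in dsTcAMPKα (log2 fold change 0.81, SE 0.20, limma adjusted p = 0.0416), past the adjusted p and under the fold threshold. MSTRG.7810, chosen after its values were seen, was at 4.56, 6.42 and 0.754 FPKM against 17.5, 11.2 and 20.1 (log2 fold change 2.02, SE 0.55, limma adjusted p = 0.0516). Within MSTRG.7811 the 21 transcripts did not move together. The most abundant, a model of 1622 nt, was at 5.53, 6.71 and 6.39 FPKM in dsEGFP and 0.952, 5.04 and 1.67 in dsTcAMPKα, while a model of 1844 nt was at 0.286 to 0.403 FPKM against 2.02 to 6.004. The direction at this locus thus depends on whether the sum or the most abundant transcript is taken.

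Of the other overlapping pairs, MSTRG.13081 and MSTRG.13080 covered the same 3232 bases of a scaffold on the 2 strands, at 6.19 to 11.0 and at 0.605 to 3.44 FPKM. MSTRG.12786 and MSTRG.12787 overlapped by 6458 bp at similar levels, 2.22 to 9.14 and 2.63 to 6.71 FPKM. None of these 4 loci was called. MSTRG.8441 (NC_007422.5:8836118-8842474, minus strand), among the 10 highest loci, was listed at 0 in dsEGFP replicate 1 and at 77.4 and 153 FPKM in the other controls, against 77.9, 48.7 and 69.3 in dsTcAMPKα. MSTRG.8440, a single-exon locus on the other strand whose 443 bp lie wholly inside it, was at 239 FPKM in dsEGFP replicate 1 and at 30.5 to 77.9 in the other 5 libraries. The fitted log2 fold change of MSTRG.8441, 1.503 (SE 1.79, limma adjusted p = 0.576), was set by the listed 0: without dsEGFP replicate 1 it was -0.76.

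Links to mobile elements could be read from the study's tables for few loci. By the terms DNA integration, RNA-dependent DNA biosynthetic process, DNA biosynthetic process and DNA recombination, 2 loci were annotated, and 3 loci had a protein description, MSTRG.8083, MSTRG.12675 and MSTRG.3000. The tables were held here in part, so these counts are a minimum. The descriptions come from the list drawn up on these same libraries for genes that stood out in them. The direction of the 3 described loci is therefore not a separate result. MSTRG.12374 (NW_015450216.1:19822-25483, plus strand, 3785 nt), with the term RNA-dependent DNA biosynthetic process, the reaction of a reverse transcriptase, was at 0.566, 0.296 and 0.207 FPKM in dsEGFP and 2.14, 0.926 and 2.58 in dsTcAMPKα. All knockdown libraries were above all controls and the difference just missed the threshold (log2 fold change 1.05, SE 0.29, limma adjusted p = 0.0549). MSTRG.13268, with the term DNA integration, was at 2.15, 1.78 and 2.44 FPKM against 1.87, 2.60 and 1.74, with no separation (log2 fold change -0.03, SE 0.20, adjusted p = 0.927). MSTRG.3000, described as a putative RNA-directed DNA polymerase from transposon BS-like protein, lay 82679 bp from the nearest gene, the farthest of the 123 loci. It was at 0.131, 0.209 and 0.128 FPKM in dsEGFP and 1.88, 1.06 and 1.49 in dsTcAMPKα, on 37 estimated reads, and stayed under the filter for testing. Of 91 annotated genes with a mobile-element term, 39 were tested, and 3 of them were called higher (7.69%, against 4.09% of all features) and none lower (against 2.71%), counts too small to read a difference from. Their median log2 fold change was 0.48, against 0.20 over all features.

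Besides MSTRG.7811, none of the loci named for their structure passed the adjusted p. MSTRG.3669, of 7 exons in 807 nt, was at 41.5, 36.3 and 21.9 FPKM in dsEGFP and 30.2, 35.6 and 30.0 in dsTcAMPKα (log2 fold change -0.01, SE 0.25, limma adjusted p = 0.979). MSTRG.5353 was at 4.82, 6.40 and 12.9 FPKM against 14.6, 9.60 and 11.6 (log2 fold change 0.60, SE 0.34, limma adjusted p = 0.250). Without dsEGFP replicate 3 its log2 fold change was 0.96 (limma adjusted p = 0.0224), under the fold threshold. With any other 1 library left out, its limma adjusted p was 0.291 to 0.525. MSTRG.12654 was at 3.59, 2.66 and 0.324 FPKM against 6.11, 2.48 and 3.76 (log2 fold change 0.80, SE 0.51, limma adjusted p = 0.299). In MSTRG.3669, MSTRG.5353 and MSTRG.12654 dsEGFP replicate 3 was the control farthest from the other controls, and the groups overlapped.

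No locus was listed at 0 in all libraries of one group and above 1 FPKM in all of the other.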

How the data were processed

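RNA-Seq of 6 whole-larva libraries (3 dsEGFP, 3 dsTcAMPKα; biological replicates, numbered here in deposit order) was used. The authors used HISAT2 for alignment (genome Tcas5.2) and StringTie, whose naming the loci carry, is listed among their tools; versions are not given in the sources used here. The deposited transcript tables hold FPKM and read coverage, with no counts; estimated reads were coverage times length over 150 nt, the read length assumed. The study's own differential expression (DESeq2) was not used. FPKM was summed per gene name or unnamed locus, filtered at a mean of 1, and log2(FPKM + 1) was fitted with limma 3.58.1 in R 4.3.3 (variance trend, group as the only term, Benjamini-Hochberg adjustment over 10981 features), a fit tested on simulated data. A feature was called past both an adjusted p of 0.05 and a log2 fold change of 1 in either direction. Intergenic position came from the deposited coordinates, and gene types from a RefSeq table of the icTriCast1.1 assembly, used for names only. Values came from Python 3.11.15 with pandas 2.3.3 and scipy 1.17.1.

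Loci named are those called, the 10 highest by mean FPKM, the 3 with most transcripts and the 3 with most exons, those annotated in the study's tables, and any at 0 in one group only, with the nearest genes of called loci. The members and lists were chosen with earlier results of these data known. Alternatives tried were another pseudocount, other filters and thresholds, median-ratio and quantile scaling, TPM, a length correction (lowess span 0.4), limma-voom on estimated reads, other feature definitions, and leaving out each library. No sequence was available for these coordinates, so none is shown.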

Additional observations from a re-analysis of the deposited data

How the results depend on the processing

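Against 11 loci called higher and 9 lower, a pseudocount of 0.1 gave 7 and 9, no filter 10 and 5, a mean FPKM of at least 5 gave 7 and 7 of 58 loci, median-ratio scaling 5 and 10, quantile normalization 7 and 8, TPM 22 and 4, the length correction 4 and 0, limma-voom 3 and 4, the most abundant transcript 5 and 3, and an adjusted p under 0.1 gave 17 and 12. Over all features the main counts were 449 higher and 298 lower. The length correction gave 46 and 75 there, and TPM 1400 and 219. Leaving out 1 library at a time gave 0 to 11 loci higher and 0 to 20 lower. Both counts were 0 without any 1 dsTcAMPKα library, with 2909 to 3031 of all 10981 features at an unadjusted p under 0.05 in limma, and the 20 lower calls came without dsEGFP replicate 3. None of the 20 called loci changed direction under any of these. Keying features by locus identifier and dropping the fold threshold kept all 20 calls. Snf1a kept its direction under every alternative, from -2.83 to -2.30 when 1 library was left out; its adjusted p was then 0.00840 to 0.0943, above 0.05 without dsEGFP replicate 2, dsTcAMPKα replicate 1 or replicate 2.

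Loci near no change reversed sign: MSTRG.2957 under length correction (0.043), MSTRG.10983 under TPM (0.15), MSTRG.3669 under TPM (0.25) and length correction (0.24), and MSTRG.13268 under TPM (0.16). With 1 library left out, the log2 fold change ran from -0.39 to 0.068 for MSTRG.10983, -0.28 to 0.17 for MSTRG.3669, -0.15 to 0.046 for MSTRG.13268 and -0.76 to 2.88 for MSTRG.8441. MSTRG.7811 reversed to -1.19 when the most abundant transcript stood for the locus. The cause of these reversals was not tested.

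No paired analysis was possible because the sample labels give no replicate numbers, and nothing ties a library of one group to one of the other. The 30 loci under 1 FPKM were not tested, and 19 loci had fewer than 100 estimated reads over all libraries. How reads from repeated sequence were shared between copies was not tested.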

Other observations

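Some loci were dominated by a single library, and those named here were chosen after their values were seen. In 6 of the 124 tested loci (4.84%, against 1.93% of all tested features) 1 library held over 50% of the sum over the 6 libraries. The most extreme was MSTRG.463 (NC_007416.3:5534124-5534534, plus strand, 361 nt with an intron of 50 bp), with 88.1% of its sum in dsEGFP replicate 3: it was at 0.370, 4.04 and 82.6 FPKM in dsEGFP and 0.0782, 0.306 and 6.31 in dsTcAMPKα, on 1280 estimated reads. The third library of each group was the highest of its group. MSTRG.6309, 2 bp from LOC658503, had 51.6% of its sum in dsEGFP replicate 2, at 19.7, 32.2 and 3.13 FPKM in dsEGFP and 1.16, 3.44 and 2.76 in dsTcAMPKα.

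MSTRG.2919 (NC_007418.3:11009900-11011364, minus strand, up to 5 exons) had the highest fitted log2 fold change of all tested features, 3.45 (limma adjusted p = 0.0926, not called). It was listed at 0 in dsEGFP replicates 2 and 3, at 23.6 FPKM in dsEGFP replicate 1 and at 33.8, 27.8 and 31.1 FPKM in dsTcAMPKα. Whether the listed 0 was a failed estimate was not tested, and the fitted change rests on it.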
